A study of Mus musculus with 8 samples.

Results

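The genes described here are *Neurog1*, *Neurog2*, *Atoh1*, *Eomes*, *Insm1*, *Neurod1*, *Neurod4*, *Neurod2* and *Neurod6*, transcription factors of proneural and intermediate progenitor stages in the developing brain. They were taken by symbol, not by a threshold on measured values, from the count tables, where they are 9 of 54752 listed genes. The choice of these genes was made with earlier results of these data known. Their mRNA was measured by RNA-seq in 8 brains of wild type C57BL/6 mice (C57BL/6Slac in the study's methods), at E15.5 (days of embryonic development), 1 library per brain. The 4 control brains (2 females, F36 and F37, and 2 males, M30 and M31) came from a dam left in its home cage. The 4 stressed brains (2 females, F34 and F35, and 2 males, M28 and M29) came from a dam under chronic unpredictable mild stress (CUMS), a changing programme of stressors such as restraint in a tube, predator odor, wet bedding and light at night, given through early and mid pregnancy. The study compared stressed with control brains to ask how prenatal stress (PS) of the mother alters gene expression in the fetal brain. Its own comparison drew on more brains and more litters than the 8 brains described here. By the study's sample table each group of 4 described here is a single litter. In these 8 brains the effect of the litter and that of the stress therefore cannot be told apart. Every p-value below measures the spread between littermates. The study describes the tissue as whole brain, with forebrain, midbrain and hindbrain, whereas its sample table names only a part of each whole brain.

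Proneural factors are basic helix-loop-helix (bHLH) proteins that bind DNA as dimers with E-proteins and start the neuronal programme in dividing progenitors of the ventricular zone. In the dorsal telencephalon, *Neurog1* and *Neurog2* act in radial glia, the stem cells of the cortex. Their progeny pass through a transient state, the intermediate progenitor of the subventricular zone, which is marked by the T-box factor *Eomes* (also called Tbr2) and by the zinc finger factor *Insm1*. The NeuroD factors then act in sequence, *Neurod1* and *Neurod4* around the last division and *Neurod2* and *Neurod6* in young and maturing glutamatergic neurons. *Atoh1* is the proneural factor of the rhombic lip in the hindbrain, the source of cerebellar granule neurons. Id proteins and most Hes and Hey repressors oppose this cascade, the former by binding E-proteins and the latter by repressing proneural genes in answer to Notch.

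The libraries held between 25320109 and 29105710 counts. From these, 17865 genes passed a filter on low counts, all 9 factors among them, and were tested with edgeR's quasi-likelihood test with sex in the model and Benjamini-Hochberg adjustment over all 17865 genes. A gene is said to have risen or fallen where the adjusted p was below 0.05. Levels are CPM, counts scaled to a normalized library of fixed size, and Log2FC is the log2 fold change of stress vs. control with its standard error (SE). Of all genes tested, 13.8% were called, 6.49% higher and 7.27% lower in the stressed brains, and the median size of a called Log2FC was 0.18. These were 2458 genes with all 8 brains and 1590 without stress M29, the brain whose omission lowered the count most. In 16.4% of the genes tested the CPM values of the groups did not overlap, 8.2% with the stressed brains higher and 8.22% with them lower.

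Of the 9 factors, 3 rose in the stressed brains (*Eomes*, *Neurog2* and *Neurog1*), none fell and 6 were not called, against the 6.49% of all genes tested that rose. The same 3 were also those whose groups did not overlap. The 3 that rose are the neurogenins and *Eomes*, while *Insm1*, the other factor named above as a mark of intermediate progenitors, was not called. The 6 that were not called were *Insm1*, *Atoh1* and all 4 NeuroD genes. In bulk tissue such as this, more cells that express a gene and more RNA per cell cannot be told apart.

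**Figure D1:**
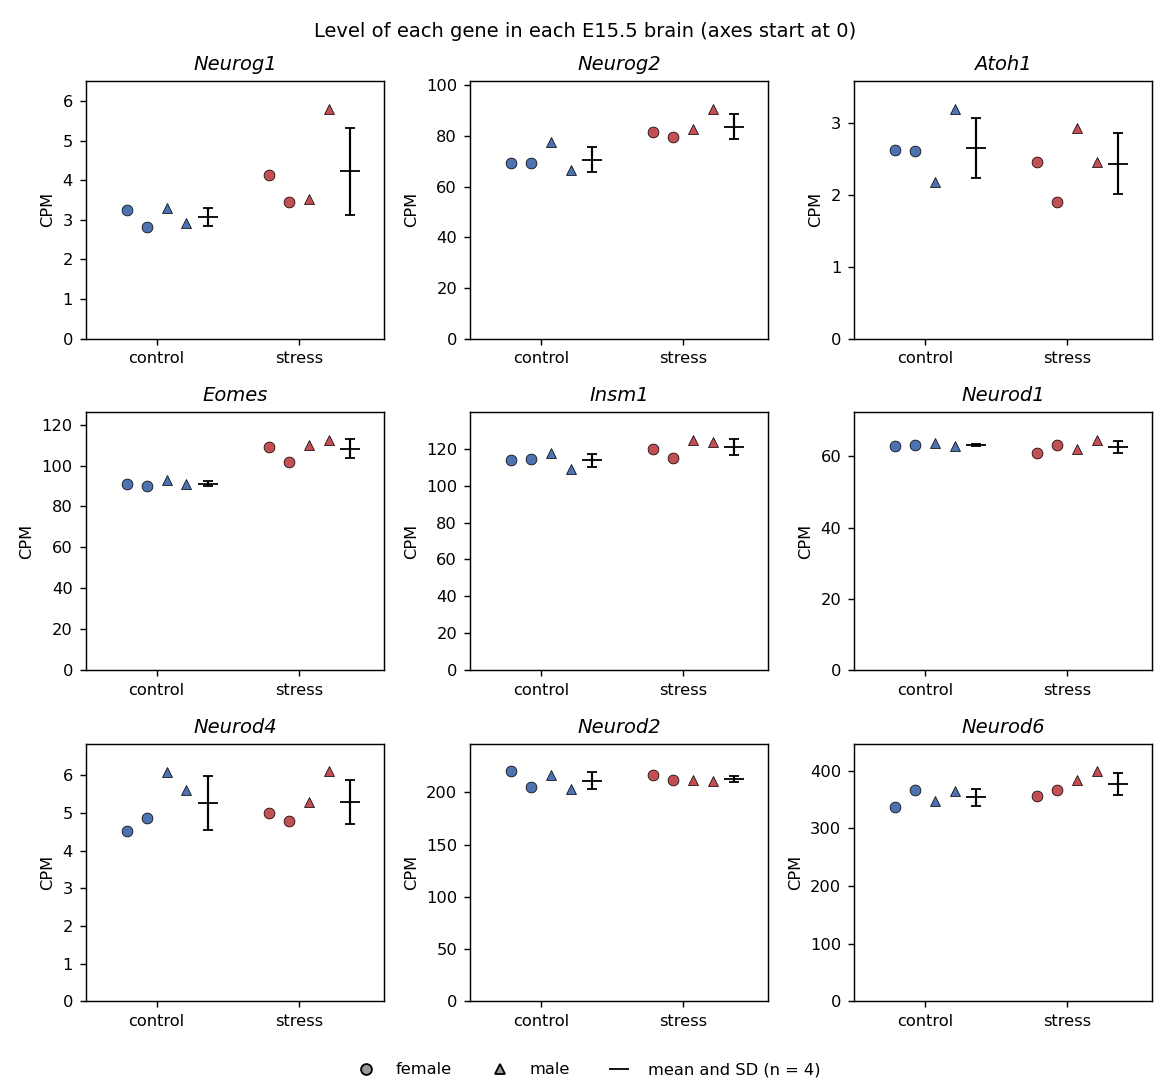
Each panel gives 1 gene, with CPM on a vertical axis that starts at 0, the 4 control and 4 stressed brains as points (circles for females, triangles for males) and the mean with its SD. *Eomes* lay at 89.9 to 92.8 CPM in the control brains and 102 to 113 CPM in the stressed brains, while *Neurod2* and *Neurod1* had overlapping values in both groups.

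*Eomes* (ENSMUSG00000032446.14; mm10, chromosome 9, 118478212 to 118486132, plus strand, 6 exon blocks) encodes the T-box factor of intermediate progenitors. It had 90.8 CPM in control F36, 89.9 in F37, 92.8 in M30 and 90.9 in M31. In the stressed brains it had 109 CPM in F34, 102 in F35, 109.9 in M28 and 113 in M29. All 4 stressed brains lay above all 4 control brains, and both the females and the males showed the gap. The control brains averaged 91.1 ± 1.22 CPM and the stressed brains 108 ± 4.70 CPM (SD, n = 4 each), a rise of 19.0% (Log2FC 0.25, SE 0.03, edgeR adjusted p = 8.40e-06). Only 0.190% of the genes tested had a smaller p. Of its exon bases, 2.84% are shared with *Gm33460* on the opposite strand, a gene with 10 to 23 counts per brain against 2494 to 3259 counts for *Eomes*.

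*Neurog2* (ENSMUSG00000027967.8; chromosome 3, 127633135 to 127635631, plus strand, 2 exon blocks) is the main neurogenin of the cortex. It had 69.2 CPM in control F36, 69.3 in F37, 77.6 in M30 and 66.5 in M31. It had 81.7 CPM in stress F34, 79.5 in F35, 82.8 in M28 and 90.8 in M29. The groups did not overlap, although control M30 and stress F35 were close to each other. Control brains averaged 70.6 ± 4.80 CPM and stressed brains 83.7 ± 4.91 CPM (SD, n = 4 each), a rise of 18.5% (Log2FC 0.24, SE 0.04, edgeR adjusted p = 0.000169).

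*Neurog1* (ENSMUSG00000048904.5; chromosome 13, 56250478 to 56252163, minus strand, 1 exon block) is its paralog, used in the early cortex and in sensory ganglia. It was a rare transcript, with 89, 80, 91 and 83 counts in control F36, F37, M30 and M31. The counts were 114 in stress F34, 87 in F35, 101 in M28 and 168 in M29. On the CPM scale the control brains lay between 2.82 and 3.30 and the stressed brains between 3.44 and 5.80, so the groups did not overlap, and stress M29 stood highest. The averages were 3.07 ± 0.24 CPM for control and 4.22 ± 1.10 CPM for stress (SD, n = 4 each), a rise of 37.7% (Log2FC 0.46, SE 0.14, edgeR adjusted p = 0.0247). The CV was 7.71% among the control brains and 26.0% among the stressed brains, where counting error alone gives about 9.92%. Without stress M29 the Log2FC of *Neurog1* was 0.27 with an edgeR adjusted p of 0.215, and the gene was called in 3 of the 8 fits that leave out 1 brain. DESeq2's Wald test gave it an adjusted p of 0.0699. *Eomes* and *Neurog2* were called in all 8 of these fits, with Log2FC between 0.23 and 0.27 and between 0.20 and 0.28.

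**Figure D2:**
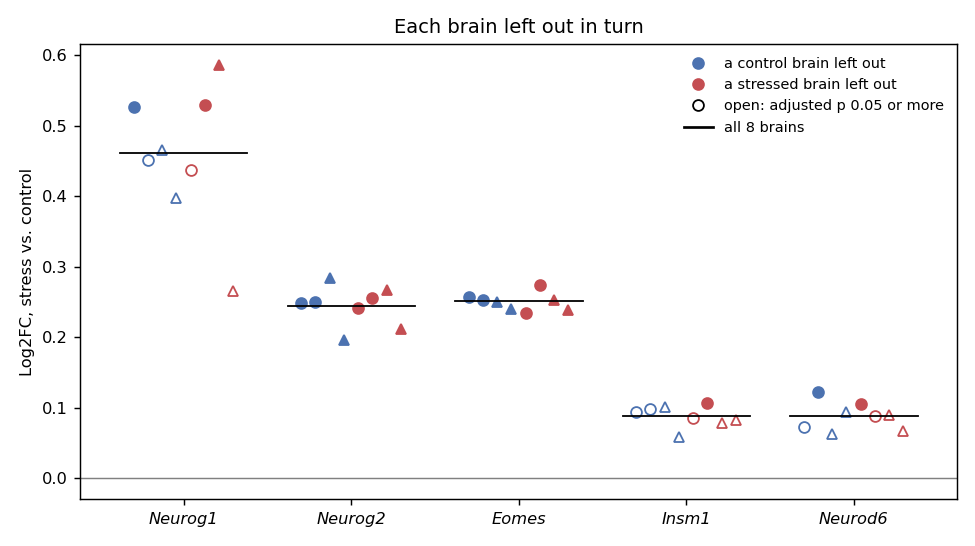
The vertical axis gives the Log2FC of stress vs. control for 5 of the factors after leaving out 1 brain (blue for a control, red for a stressed brain, circles for females, triangles for males), with the fit of all 8 brains as a line and open symbols for an adjusted p of 0.05 or more. The points of *Neurog1* run from 0.27, without stress M29, to 0.59, and those of *Eomes* from 0.23 to 0.27.

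*Insm1* (ENSMUSG00000068154.5; chromosome 2, 146221921 to 146225020, plus strand, 1 exon block) encodes a repressor that moves progenitors away from the ventricular surface. It had 114 CPM in control F36, 114 in F37, 118 in M30 and 109 in M31, and 120, 115, 125 and 124 CPM in stress F34, F35, M28 and M29. Stress F35 lay within the control range and the other stressed brains above it. The Log2FC was 0.09 (SE 0.03, edgeR adjusted p = 0.0598), which did not pass the threshold, and the difference had a 95% interval of 0.03 to 0.15 on the log2 scale from the SE. It was called in 1 of the 8 fits that leave out a brain, the one without stress F35.

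*Neurod6* (ENSMUSG00000037984.9; chromosome 6, 55677822 to 55681263, minus strand, 2 exon blocks), a factor of postmitotic glutamatergic neurons, had 337 CPM in control F36, 366 in F37, 347 in M30 and 366 in M31. It had 356 CPM in stress F34, 367 in F35, 384 in M28 and 399 in M29. The stressed males lay above every control brain and stress F34 lay inside the control range. The Log2FC was 0.09 (SE 0.03, edgeR adjusted p = 0.0557) with a 95% interval of 0.03 to 0.15, and the gene was called in 2 of the 8 fits that leave out a brain.

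*Neurod2* (ENSMUSG00000038255.6; chromosome 11, 98325415 to 98329648, minus strand, 2 exon blocks), which acts in the same neurons and in their maturation, lay at 203 to 220 CPM in the control brains and 211 to 217 CPM in the stressed brains. The stressed brains fell entirely within the control range. The Log2FC was 0.01 (SE 0.03, edgeR adjusted p = 0.844) with a 95% interval of -0.05 to 0.07. The Log2FC of *Eomes*, 0.25 with a 95% interval of 0.19 to 0.31, lay above this interval. The difference between the 2 genes was not itself tested.

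*Neurod1* (ENSMUSG00000034701.9; chromosome 2, 79452521 to 79456751, minus strand, 2 exon blocks) is switched on as intermediate progenitors become neurons. It had 63.0, 63.1, 63.6 and 63.0 CPM in control F36, F37, M30 and M31, and 60.8, 63.2, 62.0 and 64.6 CPM in stress F34, F35, M28 and M29. The stressed brains surrounded the control brains on both sides. The Log2FC was -0.01 (SE 0.03, edgeR adjusted p = 0.860) with a 95% interval of -0.08 to 0.05. Of its exon bases, 7.37% are shared with *Cerkl* on the same strand and 5.64% with *Gm26755* on the opposite strand, which had at most 13 and 3 counts in any brain.

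*Neurod4* (ENSMUSG00000048015.4; chromosome 10, 130268152 to 130280240, minus strand, 2 exon blocks) and *Atoh1* (ENSMUSG00000073043.5; chromosome 6, 64729125 to 64731245, plus strand, 1 exon block) were rare. *Neurod4*, a factor that acts beside the neurogenins in progenitors, had 124 to 168 counts in the control brains and 121 to 177 in the stressed brains (Log2FC 0.01, SE 0.09, edgeR adjusted p = 0.971). *Atoh1* had 60 to 91 counts in the control brains and 48 to 84 in the stressed brains (Log2FC -0.12, SE 0.14, edgeR adjusted p = 0.645). The groups overlapped for both genes. The 95% intervals, -0.17 to 0.19 for *Neurod4* and -0.40 to 0.16 for *Atoh1*, are wide, and changes within them were not detectable at this depth.

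To set the levels of the genes against each other, counts were divided by exon length and scaled to a fixed sum per brain (TPM). In the control brains *Neurod6* had the highest level, 637 ± 28.6 TPM, followed by *Neurod2* at 260 ± 9.41 TPM (SD, n = 4 each). *Insm1* stood at 142 ± 4.01 TPM, *Neurog2* at 123 ± 8.16 TPM, *Neurod1* at 89.5 ± 0.74 TPM and *Eomes* at 84.7 ± 1.40 TPM. *Neurog1* (7.04 ± 0.53 TPM), *Neurod4* (6.10 ± 0.86 TPM) and *Atoh1* (4.83 ± 0.79 TPM) were far lower. The factors of young neurons were thus the most abundant mRNAs of the 9. Neighbours in this order had separate ranges, except *Neurog1* and *Neurod4* and, below them, *Neurod4* and *Atoh1*, whose ranges over the 4 control brains overlapped. In the stressed brains *Eomes* reached 101 ± 3.71 TPM, above *Neurod1* at 88.6 ± 1.55 TPM, so that this pair changed places, and *Neurog2* reached 145 ± 6.73 TPM, with a range of 139 to 155 TPM that overlapped the 145 to 155 TPM of *Insm1*.

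The 8 brains hold 2 of each sex in each group. In females alone the Log2FC was 0.22 for *Eomes* (edgeR adjusted p = 0.00416) and 0.22 for *Neurog2* (adjusted p = 0.00610), and in males alone it was 0.28 (adjusted p = 3.34e-05) and 0.27 (adjusted p = 0.00110). *Neurog1* had a Log2FC of 0.32 in females (edgeR adjusted p = 0.328) and 0.58 in males (adjusted p = 0.0415). In males alone *Insm1* (Log2FC 0.13, edgeR adjusted p = 0.0414) and *Neurod6* (Log2FC 0.14, adjusted p = 0.0160) also passed, and in females alone they had Log2FC of 0.05 and 0.04. The difference between the sexes itself was tested as an interaction of sex with stress, and none of the 9 factors was called by edgeR or DESeq2, with 0.0056% of all genes called (1 gene, *Stambp*, named here after its value was seen) and 1128 genes at an unadjusted p under 0.05. The smallest unadjusted p among the 9 was 0.106, for *Neurod6*, whose Log2FC was 0.10 ± 0.06 (SE) larger in males. Between males and females, over both groups, 0.0896% of all genes and none of the 9 factors were called (none by DESeq2 either), with 1055 genes, *Neurod4* and *Neurod6* among them, at an unadjusted p under 0.05. *Neurod4* had the largest difference, 0.27 on the log2 scale higher in males (unadjusted p = 0.00682, edgeR adjusted p = 0.709).

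**Figure D3:**
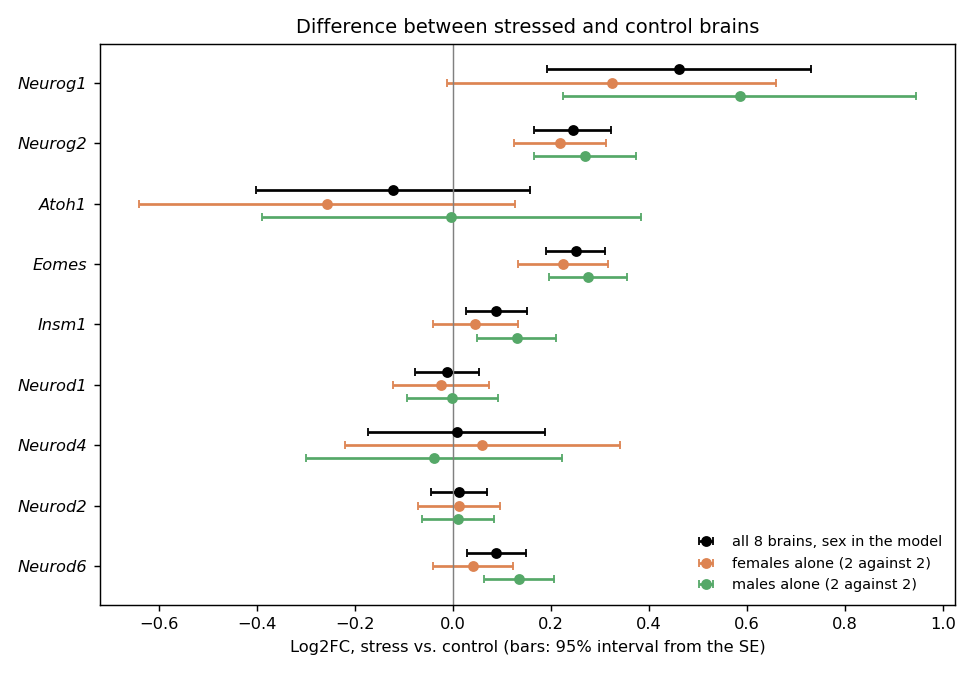
For each of the 9 genes the horizontal axis gives the Log2FC of stress vs. control with its 95% interval from the SE, for all 8 brains (black), females alone (orange) and males alone (green). *Eomes* and *Neurog2* lie between 0.22 and 0.28 in each set, and *Neurod1* and *Neurod2* lie near 0.

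To show the genes as sequence, the promoter windows of the 3 factors that rose and of 2 neuronal factors that were not called are printed below, from 250 bases before to 50 bases after the start site of RefSeq's annotation on GRCm38.p6, the assembly that mm10 names, written 5′ to 3′ on the strand of the gene. RefSeq windows were matched for 8 of the 9 genes. Capitals mark each E-box (CANNTG, the core that bHLH dimers bind, the same on both strands) and each CCAAT, searched on both strands so that ATTGG is marked too.
Eomes, chr9:118477939-118478238, plus strand: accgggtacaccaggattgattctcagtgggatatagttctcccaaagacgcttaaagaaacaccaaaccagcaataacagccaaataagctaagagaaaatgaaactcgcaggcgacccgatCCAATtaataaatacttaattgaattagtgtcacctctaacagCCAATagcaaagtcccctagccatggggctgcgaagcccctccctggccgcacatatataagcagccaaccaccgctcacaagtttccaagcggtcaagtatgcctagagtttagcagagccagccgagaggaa
Neurog2, chr3:127632886-127633185, plus strand: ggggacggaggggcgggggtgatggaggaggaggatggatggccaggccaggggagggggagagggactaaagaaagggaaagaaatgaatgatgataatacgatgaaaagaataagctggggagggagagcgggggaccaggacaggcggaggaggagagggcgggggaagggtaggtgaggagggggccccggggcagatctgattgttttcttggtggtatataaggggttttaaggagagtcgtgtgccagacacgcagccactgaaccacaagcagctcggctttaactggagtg
Neurog1, chr13:56252131-56252430, minus strand: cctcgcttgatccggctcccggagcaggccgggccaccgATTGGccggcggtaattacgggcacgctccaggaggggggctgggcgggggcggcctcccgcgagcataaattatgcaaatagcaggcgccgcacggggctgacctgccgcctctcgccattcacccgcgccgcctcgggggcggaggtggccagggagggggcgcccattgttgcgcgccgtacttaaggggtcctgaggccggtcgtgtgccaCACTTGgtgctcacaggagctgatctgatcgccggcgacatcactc
Neurod2, chr11:98329596-98329895, minus strand: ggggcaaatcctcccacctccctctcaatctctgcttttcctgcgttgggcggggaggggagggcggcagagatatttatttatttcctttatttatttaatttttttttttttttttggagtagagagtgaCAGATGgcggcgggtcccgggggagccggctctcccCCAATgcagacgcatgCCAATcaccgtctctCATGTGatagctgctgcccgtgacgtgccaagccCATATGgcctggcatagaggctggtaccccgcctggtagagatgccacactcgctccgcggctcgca
Neurod6, chr6:55681214-55681513, minus strand: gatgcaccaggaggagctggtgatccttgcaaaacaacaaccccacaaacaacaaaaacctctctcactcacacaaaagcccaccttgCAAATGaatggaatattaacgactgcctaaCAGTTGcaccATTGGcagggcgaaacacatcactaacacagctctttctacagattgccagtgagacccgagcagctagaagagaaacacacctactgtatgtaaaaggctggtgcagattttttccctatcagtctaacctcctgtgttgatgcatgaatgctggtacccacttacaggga

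The windows of *Eomes* and *Neurog2* held no E-box, that of *Neurog1* held 1, that of *Neurod6* held 2 and that of *Neurod2* held 3. Of 32851 RefSeq promoter windows of the same length, 72.3% held at least 1 E-box. A CCAAT box stood 2 times in the *Eomes* window, 2 times in that of *Neurod2*, 1 time each in those of *Neurog1* and *Neurod6* and in none of *Neurog2*, against 37.4% of all windows with at least 1. A CCAAT and an E-box can share letters, which did not occur in these 5 windows. Such matches describe the letters of these windows and no binding was measured.

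Log2 ratios of counts within each brain were then compared between the groups for pairs of genes, most of them a factor and a gene of another stage or region, with an exact two-sided permutation test over the 8 brains (smallest possible p = 0.0286, adjusted over 5 ratios, of which 4 are reported). *Eomes* rose relative to *Pax6*, 1 of the genes read here as radial glia markers. The log2 ratio was 0.37 ± 0.03 in control and 0.49 ± 0.03 in stressed brains (SD, n = 4 each). The difference was 0.11 (exact permutation p = 0.0286, adjusted p = 0.0476). The control brains had 0.39, 0.40, 0.38 and 0.33 (F36, F37, M30, M31) and the stressed brains 0.52, 0.45, 0.49 and 0.49 (F34, F35, M28, M29), with no overlap. *Neurod6* fell relative to *Eomes*, by 0.16 on the log2 scale, from 1.96 ± 0.07 to 1.80 ± 0.06 (SD, n = 4 each, exact permutation p = 0.0286, adjusted p = 0.0476), again without overlap.

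The ratio of *Tbr1*, a factor of early-born cortical neurons, to *Eomes* was 0.69 ± 0.04 in control and 0.55 ± 0.09 in stressed brains (SD, n = 4 each), and the difference of -0.14 did not pass (exact permutation p = 0.0571, adjusted p = 0.0714), with stress F35 at 0.67 inside the control range of 0.65 to 0.74. The log2 ratio of *Neurog2* to *Eomes* was -0.37 ± 0.08 in control and -0.37 ± 0.05 in stressed brains (SD, n = 4 each, exact permutation p = 0.914). Other partners for *Eomes*, chosen after the data were seen, gave smaller differences. Its log2 ratio to *Emx1*, a factor of the dorsal telencephalon alone, differed by 0.01 (exact permutation p = 0.914, n = 4 each). The log2 ratio of *Eomes* to *Emx2* differed by 0.04 (exact permutation p = 0.429, n = 4 each). *Emx2*, like *Pax6*, is among the radial glia genes below, so the rise relative to *Pax6* did not hold for both. The log2 ratio of *Eomes* to *Mki67*, a gene of dividing cells, also differed by 0.04 (exact permutation p = 0.371, n = 4 each). The groups overlapped in all 3 of these ratios.

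**Figure D4:**
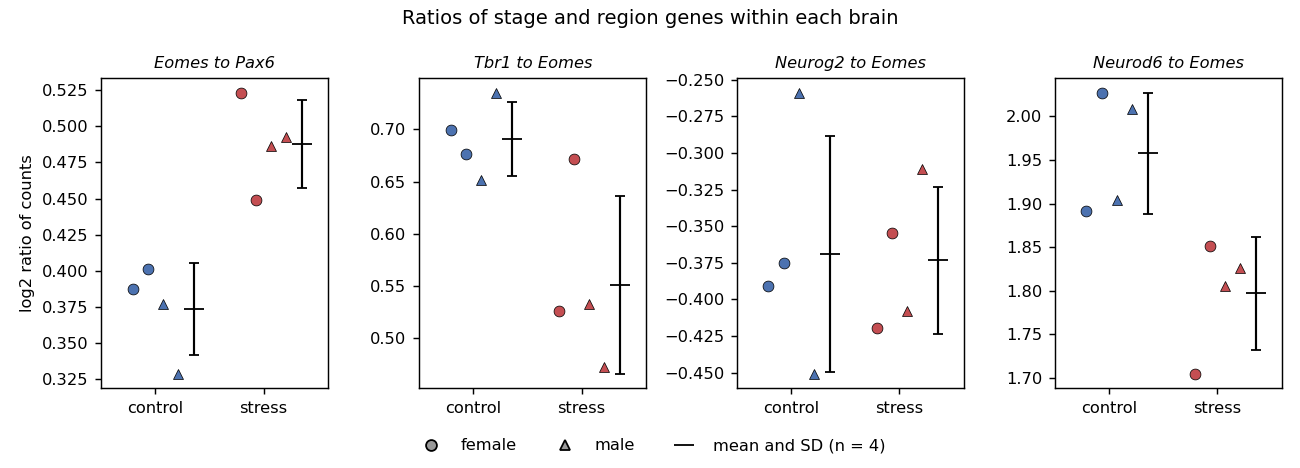
The vertical axes give the log2 ratio of counts of 2 genes within each brain (each panel with its own range, none from 0), circles for females, triangles for males, with the mean and SD of 4 brains. The groups are apart for *Eomes* to *Pax6* and for *Neurod6* to *Eomes*, and overlap for *Tbr1* to *Eomes* and *Neurog2* to *Eomes*.

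The genes around the 9 factors were taken by role, in lists that share some genes. Of 10 other neural bHLH genes tested, 5 rose and 2 fell (median Log2FC 0.05, all genes tested 0.0015). *Nhlh1*, which is switched on in cells leaving the cycle, rose from 14.9 ± 1.30 to 19.6 ± 1.19 CPM (SD, n = 4 each, Log2FC 0.39, SE 0.06, edgeR adjusted p = 3.66e-05). Its relative *Nhlh2* rose too (Log2FC 0.21, adjusted p = 0.000691). *Bhlhe22*, a factor of upper-layer cortical neurons (Log2FC -0.23, adjusted p = 9.79e-05), and *Olig1*, of the oligodendrocyte lineage (Log2FC -0.26, adjusted p = 0.000149), fell. *Neurog3*, at most 3 counts in any brain, and *Ptf1a*, at most 6, did not pass the filter.

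Of the 3 E-proteins that dimerize with these factors, *Tcf3* (Log2FC 0.13, edgeR adjusted p = 0.00915) and *Tcf12* (Log2FC 0.11, adjusted p = 0.0101) rose and *Tcf4* was not called (Log2FC -0.01). Of the 4 Id genes, whose proteins sequester E-proteins, *Id4* rose (Log2FC 0.09, adjusted p = 0.0294) and 3 were not called. None of the 6 Hes and Hey genes was called by edgeR or by DESeq2, and 1 had an unadjusted edgeR p under 0.05, with Log2FC between -0.10 for *Hes5* and 0.23 for *Hey2* (adjusted p = 0.0795). These 6 include *Hes6*, which is counted again among the proneural targets and the intermediate progenitor genes.

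Of 14 genes known as targets of proneural factors, 8 rose and none fell (median Log2FC 0.16). *Cdkn1c*, an inhibitor of the cell cycle (Log2FC 0.20, edgeR adjusted p = 0.000245), *Rnd2*, a GTPase used in neuronal migration (Log2FC 0.16, adjusted p = 0.00174), and *Cdc25b*, a phosphatase of mitotic entry (Log2FC 0.20, adjusted p = 0.00178), were among them. *Cdkn1c* shares 30.7% of its exon bases with *Gm44732* on the opposite strand, which had at most 5 counts in any brain, and *Rnd2* shares 11.4% with *Vat1*, which had 4435 to 5191 counts. Of 12 genes of intermediate progenitors, 6 rose and 1 fell (median Log2FC 0.13). *Btg2*, which marks progenitors that divide to give neurons, rose (Log2FC 0.18, adjusted p = 0.00692), and *Kif26b* fell (Log2FC -0.14, adjusted p = 0.00851). Of 8 genes of the co-repressor complexes that Insm1 uses, 3 rose, *Rcor2* (Log2FC 0.19, adjusted p = 0.000185), *Hdac1* (Log2FC 0.13, adjusted p = 0.0216) and *Kdm1a* (Log2FC 0.09, adjusted p = 0.0322). Of 4 genes of the Atoh1 lineage, *Lhx9* (Log2FC 0.19, adjusted p = 0.00111), *Lhx2* (Log2FC 0.14, adjusted p = 0.00317) and *Barhl2* (Log2FC 0.29, adjusted p = 0.00392) rose while *Atoh1* itself was not called; these LIM and Bar homeobox genes are also expressed in the forebrain, and *Lhx2* is counted again among the dorsal telencephalon genes.

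**Figure D5:**
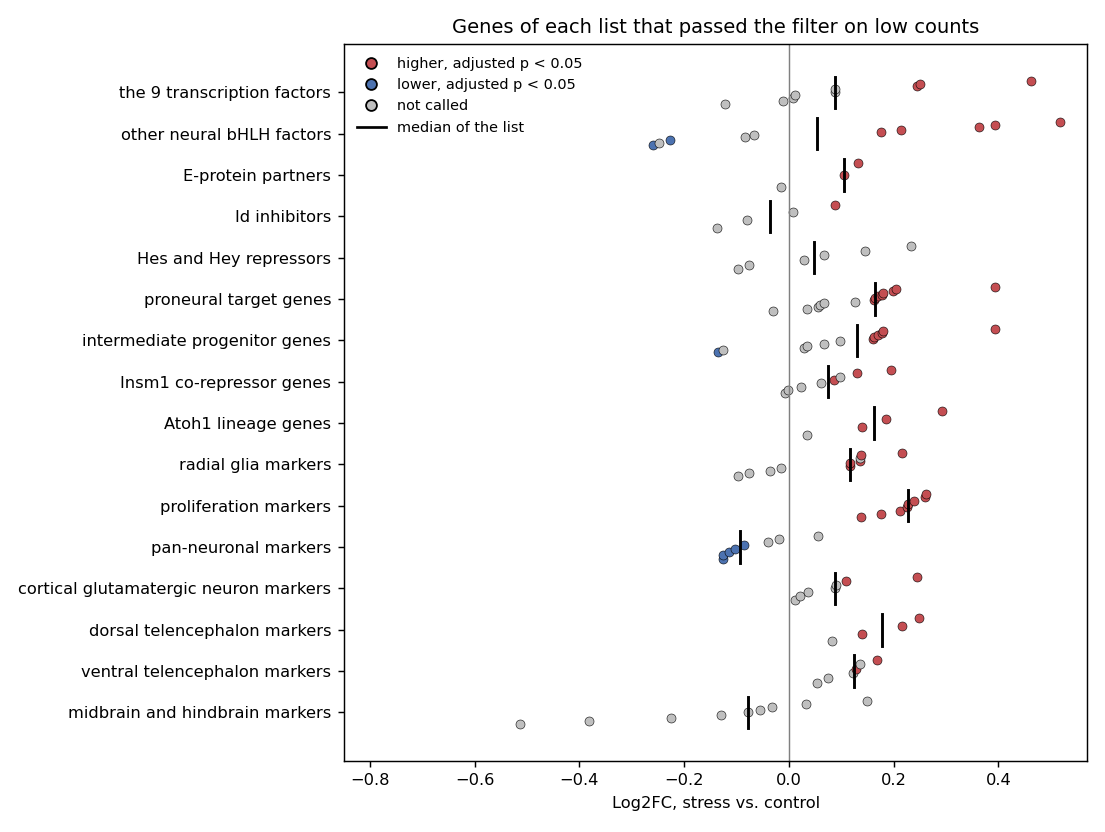
The horizontal axis gives the Log2FC of stress vs. control of each gene tested in 16 lists, red where it rose, blue where it fell and grey where it was not called, with the median of each list as a bar. All 8 proliferation genes lie to the right of 0, and 3 of the 9 transcription factors are red.

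The stages on either side were read from markers. All 8 proliferation genes rose (median Log2FC 0.23), with *Top2a* at 0.24 (edgeR adjusted p = 1.48e-05), *Mki67* at 0.21 (adjusted p = 3.25e-05), *Ccnb1* at 0.26 (adjusted p = 0.000134) and *Mcm2* at 0.23 (adjusted p = 0.000355). Their summed level was 577 to 618 CPM in the control brains and 648 to 735 CPM in the stressed brains, highest in stress M29, the brain that also had the most *Eomes*, *Neurog2*, *Neurog1* and *Neurod6*. Of 10 radial glia genes, 5 rose (median Log2FC 0.12), *Emx2* (0.22, adjusted p = 0.00164), *Pax6* (0.14, adjusted p = 0.00384), *Vim* (0.12, adjusted p = 0.00643) and *Sox2* (0.12, adjusted p = 0.0104) among them. In the same list *Hes1* (-0.08) and *Hes5* (-0.10) were not called. The summed level of the 10 overlapped, with 1591 to 1695 CPM in the control brains and 1629 to 1761 CPM in the stressed brains. Of 8 pan-neuronal genes, 5 fell and none rose (median Log2FC -0.09), such as *Mapt*, the tau protein of axons (-0.10, adjusted p = 0.00675), and *Rbfox3*, the nuclear protein NeuN (-0.13, adjusted p = 0.00880). *Syt1* (-0.11, adjusted p = 0.0147) and *Stmn2* (-0.09, adjusted p = 0.0421) also fell. The summed level of the 8 pan-neuronal genes overlapped, with 8069 to 8368 CPM in the control brains and 7928 to 8245 CPM in the stressed brains. Of 7 genes of cortical glutamatergic neurons reported here, *Neurod2* and *Neurod6* included, the deep-layer and subplate genes *Sox5* (0.24, adjusted p = 3.66e-06) and *Tbr1* (0.11, adjusted p = 0.00919) rose. These are mRNA levels, and the shares of proliferating cells and of neurons were not measured. Whether any change in such shares accounts for any of the 9 values was not tested.

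Region markers moved as well. Of 4 dorsal telencephalon genes reported here 3 rose, *Emx2*, *Emx1* (0.25, edgeR adjusted p = 0.00241) and *Lhx2*, and the summed level of the 4 was 211 to 227 CPM in the control brains and 234 to 248 CPM in the stressed brains, which did not overlap. Of 6 ventral telencephalon genes, *Dlx2* (0.13, edgeR adjusted p = 0.0333) and *Nkx2-1* (0.17, adjusted p = 0.0344) rose, while DESeq2 called none. The summed level of these 6 was 424 to 454 CPM in the control brains and 457 to 476 CPM in the stressed brains, which did not overlap either. None of 9 midbrain and hindbrain genes was called by edgeR or DESeq2 (median Log2FC -0.08; 1 gene, *En2*, named after its value was seen, had an unadjusted edgeR p under 0.05), and their summed level was 64.5 to 83.3 CPM in the control brains and 61.6 to 86.2 CPM in the stressed brains. Thus genes of telencephalon, midbrain and hindbrain were all detected, which does not show how much of each region a sample held. The part of region content in the rise of *Eomes* and *Neurog2* was not tested.

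Markers of other tissues were checked in the same way. Of 5 mesenchyme genes tested, *Col3a1* (Log2FC 1.04, edgeR adjusted p = 0.00249), *Col1a1* (1.59, adjusted p = 0.00732) and *Col1a2* (0.79, adjusted p = 0.0125) rose, with a summed level of 16.0 to 29.1 CPM in the control brains and 20.7 to 63.3 CPM in the stressed brains, highest in stress M28. Of 5 choroid plexus genes, *Otx2* (0.19, adjusted p = 0.00294) and *Ttr* (1.91, adjusted p = 0.00717) rose, with 36.9 to 47.1 and 46.6 to 76.1 CPM summed, highest in stress F34. Without stress M28 *Eomes*, *Neurog2* and *Neurog1* were still called, and without stress F34 *Eomes* and *Neurog2* were and *Neurog1* was not (Log2FC 0.44, adjusted p = 0.0722). Of 6 endothelial genes 4 fell, *Flt1* (-0.41, adjusted p = 2.19e-05), *Kdr* (-0.29, adjusted p = 8.35e-05), *Cldn5* (-0.13, adjusted p = 0.0267) and *Tek* (-0.23, adjusted p = 0.0359), with 146 to 163 and 130 to 139 CPM summed. DESeq2 called none of the mesenchyme genes, only *Otx2* of the choroid plexus genes and only *Flt1* and *Kdr* of the endothelial genes. Of 7 erythroid genes, *Hba-x* (1.09, adjusted p = 2.21e-05) and *Hbb-y* (0.84, adjusted p = 0.00012) rose and *Hbb-bs* (-0.14, adjusted p = 0.00976) fell. Sensory ganglia and olfactory epithelium, where *Neurog1* is also used, had 0 of 5 genes called by edgeR or DESeq2 and 2 with an unadjusted edgeR p under 0.05. The median Log2FC of these 5 was 0.16, with 81.2 to 91.3 CPM summed in the control brains and 88.1 to 103 CPM in the stressed brains. By edgeR or DESeq2 no gene was called, nor had any an unadjusted edgeR p under 0.05, among 5 of microglia (24.6 to 29.1 CPM summed over all brains), 3 of retina (5.14 to 8.74) and 2 of pituitary (1.99 to 2.86), and *Gh*, *Omp*, *Crx*, *Rax*, *Cga*, *Pou1f1*, *Lhb* and *Lum* did not pass the filter. The part of these tissues in the 9 values was not tested.

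Last, the genes whose profile over the 8 brains was most like that of *Eomes*, *Neurog2* and *Neurod6* were listed, among 12210 genes with at least 100 counts in every brain. Likeness was the mean absolute difference of the log2 CPM profiles, each centred on its mean. The 5 genes nearest to *Eomes* were *Dtl* (0.014), *Odc1* (0.020), *Cdc20* (0.020), *Rbl1* (0.024) and *Ttk* (0.024), where the median gene differed by 0.13. *Cdc20* and *Ttk* act in mitosis, *Dtl* and *Rbl1* in the control of replication and of E2F target genes, and *Odc1* is the first enzyme of polyamine synthesis. The 5 nearest to *Neurog2* were *Cenpm* (0.020), *Nr2e1* (0.023), *Arhgap19* (0.025), *Incenp* (0.026) and *Pclaf* (0.027), of which *Nr2e1* is a nuclear receptor of neural stem cells and *Cenpm* and *Incenp* are centromere proteins. The 5 nearest to *Neurod6* were *Dnajc2* (0.017), *Eif3e* (0.019), *Wdr77* (0.020), *B3gnt5* (0.023) and *Spg20* (0.024), where the median gene differed by 0.08. All 10 genes nearest to *Eomes* and *Neurog2* were higher in the stressed brains at an edgeR adjusted p below 0.05, and none of those nearest to *Neurod6* was, which follows from likeness to profiles with and without a group difference.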

How the data were processed

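RNA-seq of 8 E15.5 brains was analysed, 4 stressed and 4 control. The authors trimmed reads with Trim Galore, aligned them with TopHat2 2.1.1 to mm10 and counted pairs over GENCODE exons with featureCounts 1.6.3, with no strand option given. They deposited raw counts per gene, one table per brain, without normalization. The totals were 25320109 to 29105710 counts. The study's model also held batch, but no batch is named for these libraries.

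Symbols were matched for 54723 of 54752 genes. Counts were filtered (filterByExpr, minimum count 10), TMM-normalized and tested in R 4.3.3 with edgeR 4.0.16 (glmQLFit and glmQLFTest, sex and condition). SE was the Log2FC divided by the square root of F, and 95% intervals took the SE as normal. The common biological coefficient of variation was 3.14%. Ratios used a pseudocount of 0.5. DESeq2 1.42.0 and other settings were alternatives. The edgeR fit of stress against control was tested on simulated counts with planted Log2FC of size 0.5. That is larger than the Log2FC of *Eomes* and *Neurog2*, and no litter effect was simulated.

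The text names all 9 factors, in each list the genes called (the 4 with the smallest p where more passed) and the 5 genes most alike; other list genes were named after their values were seen. The members and lists were chosen with earlier results of these data known. A ratio and a gene in each of 2 lists are not reported here.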

Additional observations from a re-analysis of the deposited data

How the results depend on the processing

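The Log2FC of each factor was recomputed with DESeq2's Wald test, upper-quartile or median-of-ratios scaling, without the filter, without sex in the model, in each sex alone and with each brain left out. The counts of all genes, for stress, sex and the interaction, had some of these alternatives, and the ratios had another pseudocount, a difference of medians and brains left out. The order of levels and the likeness were not recomputed, nor were the list counts beyond DESeq2's. DESeq2 called fewer other bHLH genes (5 of 10), proneural targets (6 of 14) and intermediate progenitor genes (5 of 12) than edgeR. It also called fewer radial glia genes (4 of 10) and pan-neuronal genes (4 of 8). *Eomes*, *Neurog2* and *Atoh1* kept their direction and side of the threshold in all 15 alternatives, and *Neurog1* in 8 of 15. *Insm1* passed in 3 and *Neurod6* in 4. Values near 0 changed sign: *Neurod1* (-0.027 to 0.00067 with brains left out), *Neurod2* (-0.0088 to 0.032) and *Neurod4* (-0.027 to 0.061, and -0.038 in males alone). The number of factors called was 5 in males alone and 2 to 4 with a brain left out. Over all genes, 1590 to 2365 were called with a brain left out. For the interaction the count was 2 with DESeq2, 37 without the filter and 0 to 6 with a brain left out, and for sex it was 64 without the filter.
With a difference of medians the ratios of *Eomes* to *Pax6* (0.11) and *Neurod6* to *Eomes* (-0.14) no longer passed, and *Neurog2* to *Eomes* was 0.0016. With brains left out this last ratio ran from -0.032 to 0.032. With *Emx1*, *Emx2* or *Mki67* in place of *Pax6* the difference was 0.0054, 0.035 or 0.038 and did not pass. These partners were chosen after seeing the data. No paired analysis was possible because the labels number no replicates that the groups share. With 48 to 177 counts, *Neurod4* and *Atoh1* allow only wide intervals.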
